A study of Mus musculus with 8 samples.

Results

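The genes described here encode 3 families of liver conjugating enzymes, the UDP-glucuronosyltransferases (UGT), the cytosolic sulfotransferases (SULT), and the glutathione transferases with their microsomal relatives (GST). They were chosen by symbol alone, as the gene rows named Ugt1a to Ugt3b, Sult with a family number and letter, Gsta, Gstk, Gstm, Gsto, Gstp or Gstt with a number, Gstz1, and Mgst1 to Mgst3. This gave 67 of the 35204 genes in the table, namely 21 UGT, 21 SULT and 25 GST genes. A mean of at least 10 normalised counts over the 8 libraries was required for testing, and 51 members reached it, 18 UGT, 10 SULT and 23 GST genes. The libraries hold poly-A RNA from mouse liver. The 5 TAZ-CCl4 libraries came from C57BL/6J mice, labelled wild type, that were given TAZ S89A under an EF1a promoter by HTVI and 30 doses of carbon tetrachloride (CCl4), 3 a week over 10 weeks. The 3 control libraries are from C57BL/6J mice without treatment, also labelled wild type, with neither the construct nor CCl4. HTVI stands for hydrodynamic tail vein injection, which brings plasmid DNA mainly into hepatocytes, and EF1a is a promoter active in most cell types. TAZ is a transcriptional coactivator that the Hippo pathway holds back, S89A removes a phosphorylation site used to do so, and CCl4 is a toxin of hepatocytes. The labels give no age or sex, do not say whether the pieces of liver held tumour, and do not state that each library came from its own mouse. The p-values therefore set the difference between groups against the spread among these libraries. Part of that spread may be technical, and it need not be the spread between mice. Construct and toxin were given together, so their shares in any difference cannot be told apart.

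Conjugation joins a polar group to drugs, pollutants, hormones and waste products so that they can leave the liver in bile or blood. UGT enzymes sit in the membrane of the endoplasmic reticulum and transfer glucuronic acid from UDP-glucuronic acid. SULT enzymes are cytosolic and transfer a sulfonate group from PAPS, the activated form of sulfate, to phenols, steroids and bile acids. Most GST enzymes are cytosolic and join the tripeptide glutathione to reactive electrophiles, among them products of lipid peroxidation. Hepatocytes are the main site of all 3 reactions in liver, and many of the genes differ between male and female mice.

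The normalised totals were 12.4 to 14.2 M normalised counts in the TAZ-CCl4 libraries, against 29.8 to 35.1 M in the controls. The deposited scaling does not set totals equal, so each result was also computed with totals made equal, where the log2 fold change of the 14171 tested genes had a median of 1.26, against 0.03 as deposited. Major urinary protein (Mup) transcripts took 0.00647% to 0.139% of the signal in TAZ-CCl4 libraries and 10.6% to 24.1% in controls. Mitochondrial transcripts took 3.66% to 6.96% in TAZ-CCl4 libraries and 11.7% to 14.3% in controls. The library project named in the labels coincides with the group and cannot be told apart from it. Wwtr1, which encodes TAZ, had 9021, 4339, 5114, 4892 and 5299 normalised counts in TAZ-CCl4 replicates 1 to 5, against 463, 358 and 279.9 in control replicates 1 to 3. Reads of the construct, where counted, were not told apart from those of the mouse's own gene. Of 8 hepatocyte markers, 7 were lower and Alb was not called, and their summed level was 0.689 to 0.998 M normalised counts in the TAZ-CCl4 libraries, against 1.95 to 2.44 M in the controls. At equal totals 4 of the 8 were lower. As a share of all signal the sum overlapped, at 5.42% to 7.06% in the TAZ-CCl4 libraries and 5.56% to 8.13% in the controls. Alb was the largest part of it. All signal includes the Mup and mitochondrial transcripts, whose larger part in the controls lowers the control shares of other genes. Marker shares without them were not computed. All 6 cholangiocyte markers were higher under both scalings, with sums of 33608 to 119830.0 in the TAZ-CCl4 libraries, against 1867 to 2551 in the controls. Most of that sum was Spp1, and the other 5 markers summed to 1904 to 6873 in the TAZ-CCl4 libraries, against 263 to 336 in the controls, with Krt19 overlapping between the groups. Of 6 markers each, 4 macrophage, 4 stellate cell, 3 lymphocyte and 2 endothelial markers were higher as deposited, and 2 endothelial markers were lower. At equal totals 5 macrophage, 5 stellate cell, 5 lymphocyte and 4 endothelial markers were higher and none was lower. Among all tested genes 32.4% were higher and 29.8% lower as deposited, and 76.3% and 6.39% at equal totals. No marker was at 0 in any library. The part of these shifts in the results below was not tested, and in bulk tissue fewer cells of a type and less RNA per cell cannot be told apart.

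UGT genes were lower in the TAZ-CCl4 livers almost throughout. SULT genes split into rises and falls, with most rises in genes near 0 in the controls. GST genes had more members lower than higher as deposited but as many higher as lower at equal totals. With limma on log2 values and an adjusted p under 0.05, 8 of the 51 tested members were higher and 34 were lower, against 32.4% of all tested genes higher and 29.8% lower. The UGT genes had 1 higher and 17 lower, the SULT genes 4 higher, 5 lower and 1 not called, and the GST genes 3 higher, 12 lower and 8 not called. Sult2a1, Sult2a2 and Sult2b1, with control means of 0.402, 2.24 and 1.77, reached the mean of 10 through the TAZ-CCl4 libraries only. Sult2a7, Sult5a1, Ugt1a10, Ugt2a2, Ugt2b37 and Ugt2b38 reached it through the controls only. Their calls are thus not independent of the filter. Sult1a1, also called higher, was far above that level in both groups. At equal totals 16 members were higher and 27 lower, against 76.3% of all tested genes higher and 6.39% lower, and the split was 3 higher and 14 lower for UGT, 5 and 5 for SULT, and 8 and 8 for GST. With Mup and mitochondrial genes left out of the totals 12 members were higher and 29 lower, with 7 and 10 for GST, against 62.9% and 10.7% of all tested genes. At equal upper quartiles 10 were higher and 31 lower, with 5 and 10 for GST, against 38.6% and 23.4% of all tested genes. The median log2 fold change was -3.73 for the UGT genes, -1.10 for the SULT genes, which turned to 0.15 at equal totals, and -0.94 for the GST genes, which turned to 0.31 at equal totals. Relative to the median of all tested genes the 3 medians were -3.76, -1.12 and -0.97 as deposited. The UGT genes thus lay further below the median gene than the other 2 families. At equal totals the values were -3.75, -1.12 and -0.96, which had to be nearly the same, since that scaling shifts all genes of a library alike. After quantile normalisation, which does not shift all genes alike, they were -3.46, -1.20 and -0.52. The groups did not overlap for 8 members that were higher and 32 that were lower in TAZ-CCl4 livers, against 30.7% and 29.4% of all tested genes. More than 2-fold changes that passed the test numbered 7 higher and 30 lower, against 23.9% and 15.9% of all tested genes.

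**Figure D1:**
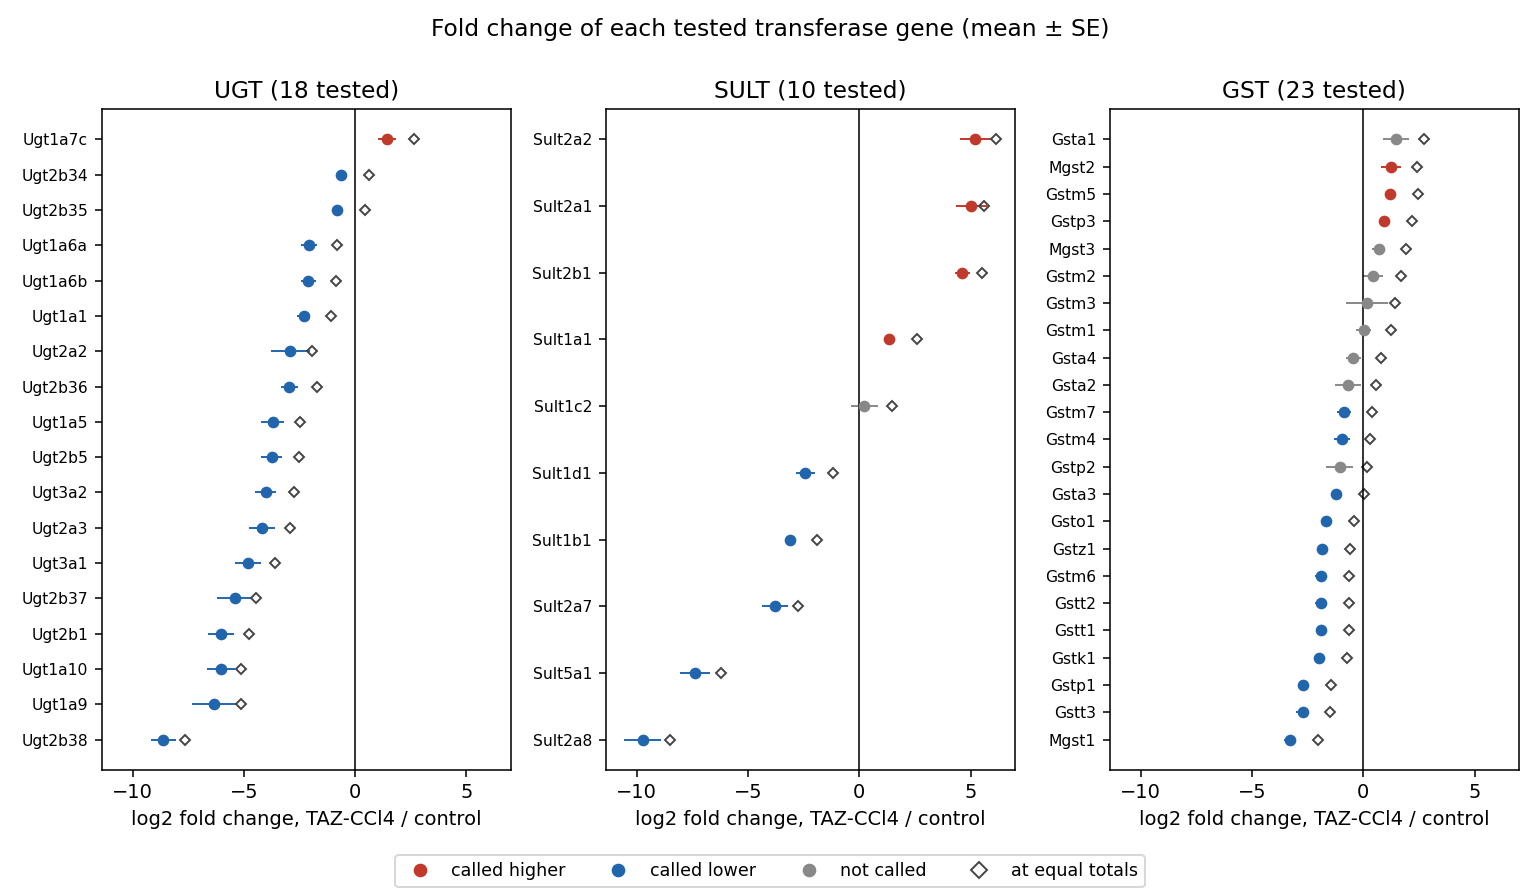
Log2 fold change of TAZ-CCl4 over control livers (x axis, log2 scale) for each tested UGT, SULT and GST gene, with points as means at the deposited scaling, bars as the standard error from limma, colour by call, and open diamonds for the same value at equal totals. UGT points lie to the left except Ugt1a7c, SULT points run from -9.72 to 5.21, and GST points lie between -3.27 and 1.47; the diamonds lie to the right of the points, and for Ugt2b34, Ugt2b35 and several GST genes on the other side of 0.

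The families also differed in how much transcript signal was left. Summed UGT signal was 17058, 18447, 29815, 18836 and 25666 normalised counts in TAZ-CCl4 replicates 1 to 5, against 128057, 122862 and 112596 in control replicates 1 to 3. Summed SULT signal was 16769.7, 15851, 13654, 12616 and 13706 in the TAZ-CCl4 libraries, against 25324, 27644 and 26181 in the controls. Summed GST signal was 84184, 77968, 146856, 92866 and 141876 in the TAZ-CCl4 libraries, against 305210.0, 293587 and 302270.0 in the controls. None of the 3 sums overlapped between the groups, and the mean control level was 5.52 times the TAZ-CCl4 level for UGT, 1.82 times for SULT and 2.76 times for GST. As a share of all signal in a library, which does not depend on the scaling, UGT transcripts made up 0.165 ± 0.0342% in the TAZ-CCl4 livers and 0.384 ± 0.0226% in the controls (SD, n = 5 and n = 3). SULT transcripts made up 0.110 ± 0.0144% of the signal in TAZ-CCl4 livers, against 0.0840 ± 0.0104% in the controls, and GST transcripts 0.815 ± 0.218%, against 0.954 ± 0.0743%. On that scale the SULT share was higher in all TAZ-CCl4 libraries than in any control, and the GST ranges overlapped. The UGT share was lower in all TAZ-CCl4 libraries than in any control. All signal includes the Mup and mitochondrial transcripts, whose larger part in the controls lowers the control shares of other genes. Shares without them were not computed, so the SULT and GST statements hold for shares of all signal only. In each family a different member led the signal in the 2 groups or held a much larger part of it.

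**Figure D2:**
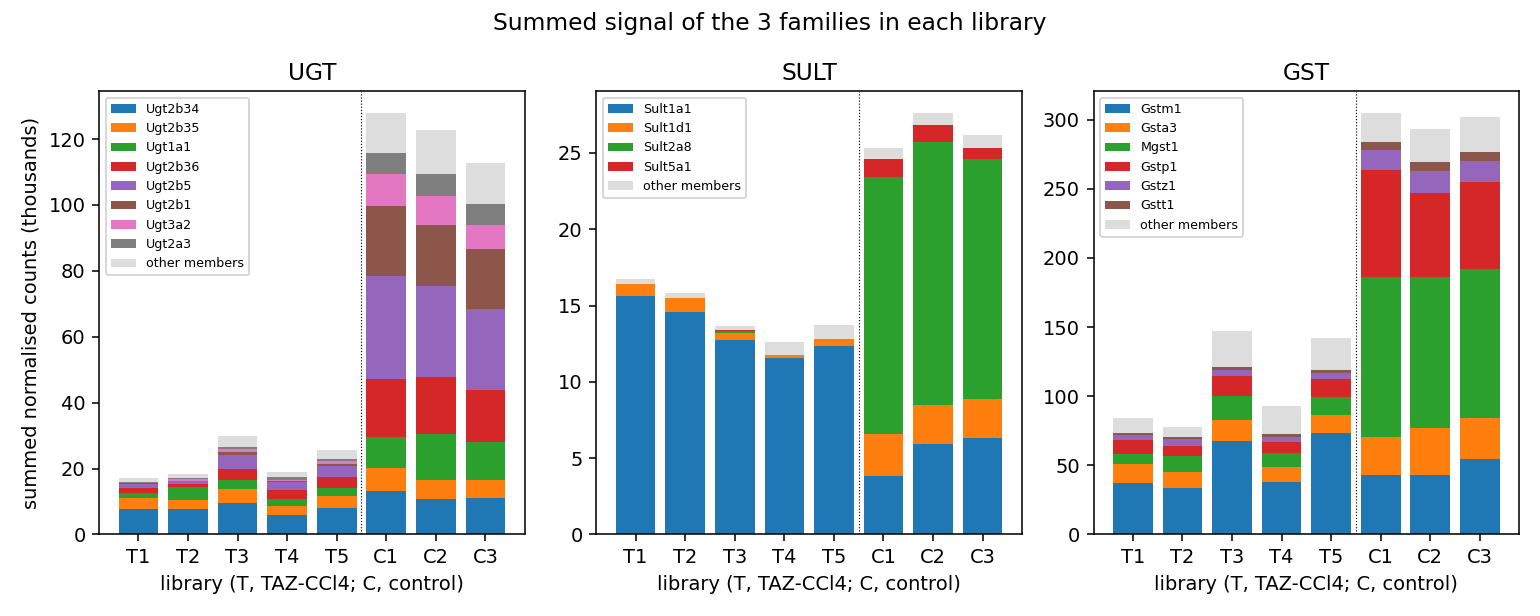
Summed normalised counts (y axis, linear, starting at 0) of the UGT, SULT and GST genes in each library (x axis, T1 to T5 for TAZ-CCl4 and C1 to C3 for control), stacked by leading member. The UGT and GST columns are lower in every TAZ-CCl4 library, and the SULT columns change from mostly Sult2a8 in controls to mostly Sult1a1 in TAZ-CCl4 livers.

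Among the UGT genes, the UGT1 group is 1 locus on chromosome 1 in which alternative first exons, each with its own promoter, are joined to a shared set of downstream exons, so that the proteins differ in the part that binds the substrate. Of 7 tested UGT1 genes 6 were lower and Ugt1a7c was higher, under both scalings. Because the downstream exons are shared, 53.0% to 84.2% of the 31-base words of the tested UGT1 transcripts also occur in other genes, so single values depend on how the authors' counting divided reads among them. Ugt1a1 (chromosome 1, 88211959 to 88218997, GENCODE M21, mm10) encodes the enzyme that conjugates bilirubin. Its level was 1309, 3826, 2759.6, 2272 and 2167 normalised counts in TAZ-CCl4 replicates 1 to 5, against 9503, 13878 and 11745 in control replicates 1 to 3. Every TAZ-CCl4 library lay below every control, with a log2 fold change of -2.31 ± 0.29 (standard error; limma, adjusted p = 7.04e-05). Ugt1a9 (chromosome 1, 88070800 to 88218997), whose human counterpart conjugates phenols, stood at 11.8, 13.5, 169, 2.92 and 66.6 in the TAZ-CCl4 libraries, against 1803, 2135 and 1951 in the controls. Replicates 3 and 5 kept more of it than the other TAZ-CCl4 livers, and all were far below the controls. The log2 fold change was -6.34 ± 0.99 (limma, adjusted p = 2.97e-04), -7.04 without TAZ-CCl4 replicate 3 and -5.68 without TAZ-CCl4 replicate 4, and the TAZ-CCl4 mean of 52.7 was 23.7 without replicate 3. Ugt1a10 (chromosome 1, 88055388 to 88219004), known in human mainly from the intestine, was listed at 0, 0, 0, 1.79 and 3.22 in the TAZ-CCl4 libraries, against 115, 84.2 and 127 in the controls. It was at 0 in 3 of 5 TAZ-CCl4 libraries, and its TAZ-CCl4 mean of 1.0 was 0.448 without replicate 5. The log2 fold change of -6.05 ± 0.63 (limma, adjusted p = 2.01e-05) depends on the added 1 at so low a level.

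Ugt1a7c (chromosome 1, 88095062 to 88220002), another first exon of the locus, was the exception. It had 56.7, 105, 52.9, 90.1 and 70.2 normalised counts in the TAZ-CCl4 libraries, against 51.9, 16.2 and 20.6 in the controls. The lowest TAZ-CCl4 value, in replicate 3, was just above the highest control, and the log2 fold change was 1.45 ± 0.40 (limma, adjusted p = 0.00936). The control mean of 29.5 was 18.4 without control replicate 1. The call was lost after quantile normalisation, at 0.45, and with a replicate block, at 1.36. Of the other 3 tested members, Ugt1a5 had a log2 fold change of -3.71, and Ugt1a6a and Ugt1a6b, whose enzyme conjugates small flat phenols, had -2.07 and -2.11, all with groups that did not overlap.

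The UGT2 genes, whose enzymes conjugate steroids, bile acids and many drugs, were all lower as deposited, with 9 of 9 called, while at equal totals 2 of them, Ugt2b34 and Ugt2b35, were higher, 6 were lower and Ugt2a2 was not called. Ugt2b5 (chromosome 5, 87124960 to 87140318) had 1428, 741, 4326, 2443 and 3257 normalised counts in the TAZ-CCl4 libraries, against 31304, 27647 and 24621 in the controls. Replicate 3 held the highest and replicate 2 the lowest TAZ-CCl4 value, and no group values overlapped. The log2 fold change was -3.75 ± 0.48 (limma, adjusted p = 7.51e-05), and 56.4% of its 31-base words occur in other genes, mostly in Ugt2b38. Ugt2b38 (chromosome 5, 87409942 to 87424203) showed the largest fall of all UGT genes, with 0, 0, 2.94, 2.55 and 2.18 normalised counts in the TAZ-CCl4 libraries, against 1283, 641 and 712 in the controls. It was listed at 0 in 2 TAZ-CCl4 libraries and near 0 in the other 3, and the log2 fold change was -8.61 ± 0.57 (limma, adjusted p = 1.50e-06), with 52.9% of its words shared.

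Ugt2b34 (chromosome 5, 86889767 to 86906937) and Ugt2b35 (chromosome 5, 87000860 to 87013275) changed least. Ugt2b34 had 7642, 7634, 9516, 5811 and 7942 normalised counts in the TAZ-CCl4 libraries, against 13266, 10825 and 11104 in the controls. Its groups did not overlap, but the log2 fold change of -0.62 ± 0.17 (limma, adjusted p = 0.0104) was not called without control replicate 1 (adjusted p = 0.0561) and was 0.63 at equal totals, 0.21 at equal totals after leaving out Mup and mitochondrial genes, and 0.55 after quantile normalisation. Ugt2b35 had 3538, 2940.3, 4159.6, 2713 and 3863 in the TAZ-CCl4 libraries, against 6768, 5769.6 and 5295 in the controls, with a log2 fold change of -0.80 ± 0.17 (limma, adjusted p = 0.00199), against 0.45 at equal totals. Their direction thus rests on the scaling, while their share of the UGT signal does not. Ugt2b34 made up 36.0 ± 6.62% of the UGT signal in the TAZ-CCl4 livers and 9.68 ± 0.791% in the controls, and Ugt2b35 16.0 ± 2.75% and 4.89 ± 0.338%. Ugt2b1, chosen after its values were seen, went the other way, with 1.60 ± 1.02% of the UGT signal in TAZ-CCl4 livers and 15.9 ± 0.885% in controls. Its level was 152, 121, 932, 224 and 549 normalised counts, against 21321, 18352 and 18224 in the controls, a log2 fold change of -6.04 ± 0.58 (limma, adjusted p = 1.16e-05), and the TAZ-CCl4 mean of 396 was 262 without replicate 3. Of the other UGT2 genes, Ugt2b36, Ugt2a3 and Ugt2b37 had log2 fold changes of -2.96, -4.18 and -5.42, and Ugt2a2, of which 93.6% of the words occur in other genes, had -2.90 and was not called without control replicate 3 (limma, adjusted p = 0.0795).

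Both UGT3 genes were lower under both scalings. In human the UGT3A enzymes use other sugars than glucuronic acid. Ugt3a2 (chromosome 15, 9335550 to 9370955) had 190.4, 409, 951, 502 and 1047 normalised counts in the TAZ-CCl4 libraries, against 9531, 8823 and 7259 in the controls, a log2 fold change of -4.02 ± 0.47 (limma, adjusted p = 4.37e-05). Ugt3a1, the other gene of the group, had a log2 fold change of -4.83. TAZ-CCl4 replicate 1 was lowest for both. Per kilobase of the longest coding transcript, the 3 highest UGT genes in the TAZ-CCl4 livers were Ugt2b34 at 1788, Ugt2b5 at 1313 and Ugt2b36 at 1276 normalised counts per kilobase. In the controls they were Ugt2b5 at 14993, Ugt2b36 at 8947 and Ugt2b1 at 7501, with Ugt2b34 in rank 7 at 2721. The order depends on the length used, since with the median coding transcript, an alternative added after seeing the data, Ugt2b36 came first in both groups, at 2946 in TAZ-CCl4 livers and 20651 in controls, ahead of Ugt2b34 at 2094 in TAZ-CCl4 livers and of Ugt2b5 at 14993 in controls.

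**Figure D3:**
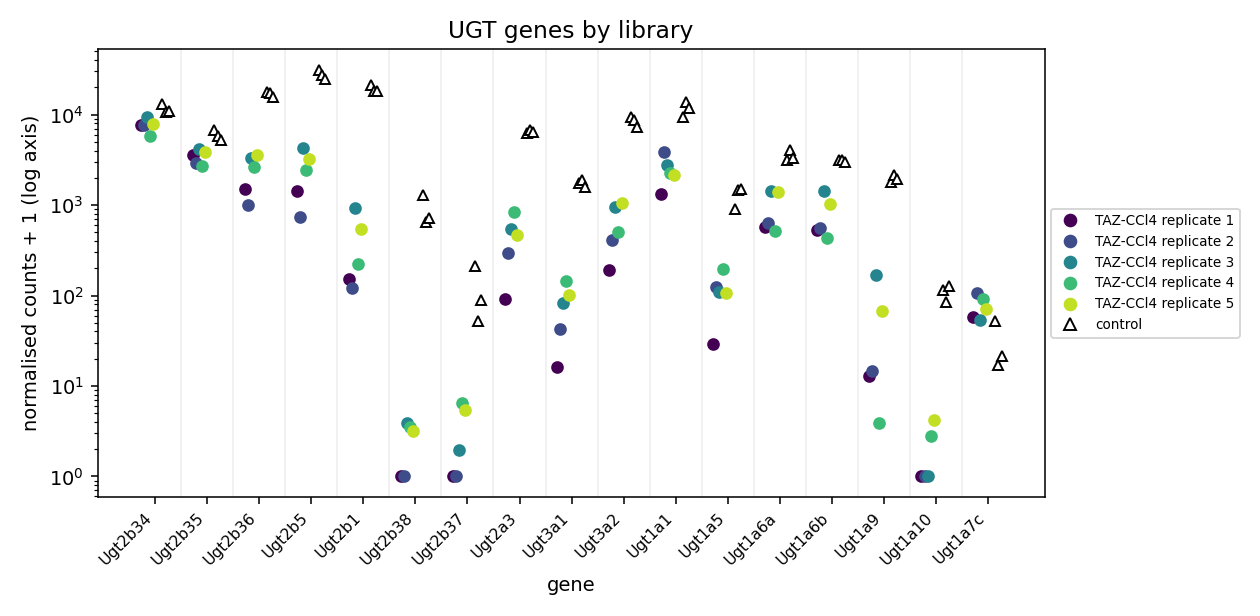
Normalised counts plus 1 (log axis) of 17 tested UGT genes in each library, with filled circles for TAZ-CCl4 replicates 1 to 5 and open triangles for the 3 controls. The controls lie above the circles for each gene shown except Ugt1a7c, and the gap is smallest for Ugt2b34 and Ugt2b35, whose direction turns at equal totals.

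The SULT family changed its make-up. In the TAZ-CCl4 livers Sult1a1 made up 92.1 ± 1.37% of the SULT signal, against 20.3 ± 4.63% in the controls, while Sult2a8 made up 0.268 ± 0.369% and 63.0 ± 3.20%. Sult1a1 (chromosome 7, 126672865 to 126676432) encodes the main sulfotransferase for simple phenols. Its level was 15649, 14559.7, 12756, 11582 and 12344 normalised counts in TAZ-CCl4 replicates 1 to 5, against 3833, 5953 and 6315 in control replicates 1 to 3. All TAZ-CCl4 libraries lay above all controls, and the log2 fold change was 1.34 ± 0.19 (limma, adjusted p = 1.68e-04), with 2.59 at equal totals. Sult1b1 (chromosome 5, 87513339 to 87538195), whose enzyme acts on thyroid hormones and phenols, went down to 49.4, 98.3, 73.5, 90.8 and 70.1 in the TAZ-CCl4 libraries, against 651, 661 and 654 in the controls. The control values lay within a few counts of each other, and the log2 fold change was -3.12 ± 0.23 (limma, adjusted p = 2.18e-06). Sult1d1, whose mouse enzyme conjugates catecholamines, had a log2 fold change of -2.43 (limma, adjusted p = 6.59e-04) and groups that did not overlap. Sult1c2 did not pass (log2 fold change 0.24; limma, adjusted p = 0.751), with TAZ-CCl4 replicate 4 at 415 and the other 4 at 52.8 to 98.8, and was called higher at equal totals, at 1.47. Its TAZ-CCl4 mean of 147 was 80.0 without replicate 4.

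The SULT2 genes, whose enzymes act on hydroxysteroids and bile acids, moved in both directions, with 3 higher and 2 lower under both scalings. Sult2a8 (chromosome 7, 14410686 to 14446769) encodes a bile acid sulfotransferase of mouse liver and showed the largest fall of all members. It had 6.72, 9.63, 123, 6.10 and 39.4 normalised counts in TAZ-CCl4 replicates 1 to 5, against 16821, 17232 and 15741 in control replicates 1 to 3. Every TAZ-CCl4 value was far below the lowest control, and replicate 3 kept the most. The log2 fold change was -9.72 ± 0.83 (limma, adjusted p = 5.51e-06), and -10.39 without TAZ-CCl4 replicate 3, whose omission lowered the TAZ-CCl4 mean to 15.5, against 37.0 with it. Sult2a7, next to it on chromosome 7, had a log2 fold change of -3.78, and its TAZ-CCl4 mean of 2.38 was 1.20 without replicate 3.

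Sult2a1 (chromosome 7, 13796246 to 13837409) and Sult2a2 (chromosome 7, 13733505 to 13779636), hydroxysteroid sulfotransferase genes expressed in mouse liver mainly in females, were higher. Sult2a2 had 111, 80.7, 32.0, 169.7 and 474 normalised counts in the TAZ-CCl4 libraries, against 1.90, 2.42 and 2.41 in the controls, a log2 fold change of 5.21 ± 0.70 (limma, adjusted p = 1.05e-04). Sult2a1 had 33.6, 22.8, 17.6, 69.5 and 132 in the TAZ-CCl4 libraries, against 0, 0 and 1.21 in the controls, a log2 fold change of 5.04 ± 0.68 (limma, adjusted p = 1.14e-04). Both were highest in TAZ-CCl4 replicate 5 and lowest in replicate 3, with no overlap of the groups, and without replicate 5 the TAZ-CCl4 mean was 98.3 for Sult2a2, against 173 with it, and 35.9 for Sult2a1, against 55.2 with it. The values of these genes are uncertain singly, since 55.6% of the 31-base words of Sult2a1 and 74.5% of those of Sult2a2 occur in other genes, mostly in each other. The Y-linked genes Ddx3y, Eif2s3y, Kdm5d and Uty, looked at after these values were seen, had signal in all 8 libraries, with Ddx3y at 332 to 649 normalised counts in TAZ-CCl4 livers, against 834 to 1077 in controls. Sult2a5 was below the level for testing, with 5.45, 2.07, 0, 7.64 and 35.0 in the TAZ-CCl4 libraries, and was listed at 0 in the 3 controls. Like its neighbours it was highest in replicate 5 and lowest in replicate 3. Sult2b1 (chromosome 7, 45729983 to 45784669), whose enzyme acts on cholesterol and pregnenolone, had 62.3, 66.0, 51.3, 84.7 and 70.9 normalised counts in the TAZ-CCl4 libraries, against 1.83, 1.17 and 2.32 in the controls. It varied little among the TAZ-CCl4 livers and had a log2 fold change of 4.62 ± 0.34 (limma, adjusted p = 2.26e-06). Summed SULT2 signal was 223, 182, 231, 339 and 758 in the TAZ-CCl4 libraries, against 16860.3, 17272 and 15789.6 in the controls, while summed SULT1 signal was 16535, 15661, 13396, 12268 and 12934, against 7309.7, 9236 and 9650.5. The SULT2 sum was thus lower and the SULT1 sum higher in each TAZ-CCl4 library than in any control.

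Outside these groups only Sult5a1 (chromosome 8, 123140192 to 123158315) reached the level for testing. It had 0.722, 2.89, 23.0, 5.44 and 6.34 normalised counts in the TAZ-CCl4 libraries, against 1145, 1129.7 and 739.7 in the controls, a log2 fold change of -7.37 ± 0.69 (limma, adjusted p = 9.40e-06), and its TAZ-CCl4 mean of 7.67 was 3.85 without replicate 3. Sult3a1, the only member of its group with any value above 0, was at 1.95 in TAZ-CCl4 replicate 3 and at 1.21 in control replicate 3, and 0 elsewhere. Sult1e1, the estrogen sulfotransferase gene, did not exceed 10.3 in any library. Sult1c1, Sult2a6 and Sult3a2 were listed at 0 in all 8 libraries, as were Ugt1a8 and Ugt2a1 among the UGT genes. Per kilobase of the longest coding transcript, Sult1a1 at 9765 led in the TAZ-CCl4 livers, ahead of Sult2a2 at 234 and Sult1d1 at 229 normalised counts per kilobase, while Sult2a8 at 7745, Sult1a1 at 3918 and Sult1d1 at 1076 led in the controls, and the median coding transcript gave the same order of these genes. The place of Sult2a2 rested on replicate 5, without which it stood at 133 and Sult1d1 at 241 normalised counts per kilobase in the TAZ-CCl4 livers.

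**Figure D4:**
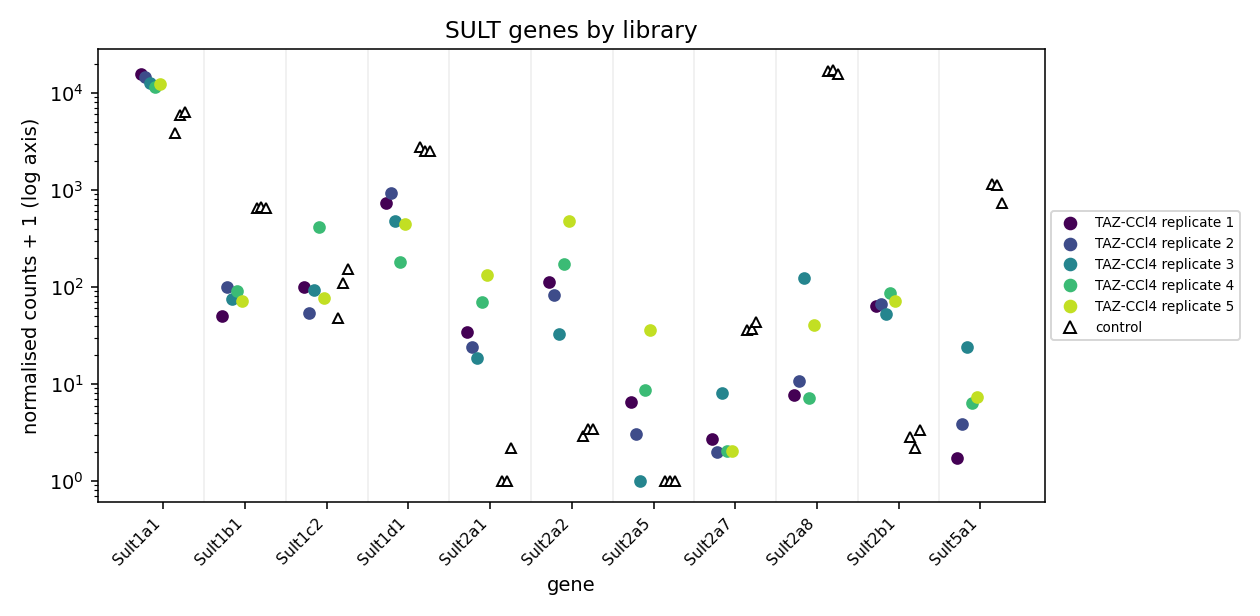
Normalised counts plus 1 (log axis) of the 10 tested SULT genes and Sult2a5 in each library, with filled circles for TAZ-CCl4 replicates 1 to 5 and open triangles for the 3 controls. Sult1a1, Sult2a1, Sult2a2 and Sult2b1 lie above the controls, Sult1b1, Sult1d1, Sult2a7, Sult2a8 and Sult5a1 below them, and replicates 3 and 5 lie apart from each other for Sult2a1, Sult2a2 and Sult2a5.

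The GST genes covered the narrowest range of fold changes of the 3 families, and their classes differed. Kappa, omega, theta and zeta genes were lower, with 6 of 6 called as deposited and 5 of 6 at equal totals, where Gstt2 was not called. Alpha, mu, pi and microsomal genes were mixed. Microsomal Mgst1 (chromosome 6, 138140316 to 138156755) encodes a membrane enzyme with transferase and peroxidase activity and was the highest GST gene per kilobase in the controls. It had 7216, 11515, 17544, 10491 and 12933 normalised counts in TAZ-CCl4 replicates 1 to 5, against 115506, 109038 and 108262 in control replicates 1 to 3. TAZ-CCl4 replicate 3 held the most and replicate 1 the least, with no overlap of the groups. Its log2 fold change of -3.27 ± 0.27 (limma, adjusted p = 4.32e-06) was the largest fall in the family. Mgst2, chosen after its values were seen, encodes an enzyme that can form leukotriene C4 and was higher, at 94.0, 24.8, 30.3, 32.1 and 32.4 against 11.3, 20.6 and 15.5 in the controls. Replicate 1 stood apart from the other TAZ-CCl4 libraries. The log2 fold change was 1.23 ± 0.45 (limma, adjusted p = 0.0346), and the call was lost without control replicate 1 (adjusted p = 0.120) and without control replicate 3 (adjusted p = 0.0802). Mgst3 did not pass, at 0.69 (limma, adjusted p = 0.0691), but did without TAZ-CCl4 replicate 2 (adjusted p = 0.0283), without control replicate 3 (adjusted p = 0.0265) and at equal totals, at 1.94.

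Among pi class genes, Gstp1 (chromosome 19, 4035407 to 4037985), a main transferase of male mouse liver, had 10289, 7321, 14091, 7973 and 13086 normalised counts in the TAZ-CCl4 libraries, against 77224, 60782 and 62462 in the controls. The groups lay far apart, and the log2 fold change was -2.70 ± 0.25 (limma, adjusted p = 9.04e-06). Gstp3 (chromosome 19, 4057477 to 4059569) was higher, with 928, 510.0, 464, 875 and 572 in the TAZ-CCl4 libraries, against 309, 298 and 398 in the controls, a log2 fold change of 0.95 ± 0.25 (limma, adjusted p = 0.00657). Gstp3 shares 0.534% of its 31-base words with other genes, while Gstp1 shares 38.5% and Gstp2 60.3%, mostly with each other, so those values are uncertain singly. Gstp2 did not pass, at -1.06 and 0.18 at equal totals (limma, adjusted p = 0.148 as deposited). The 3 genes lie next to each other on chromosome 19 between 4035407 and 4059569.

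The mu class lies in a cluster on chromosome 3, and its most abundant member per kilobase, Gstm1 (chromosome 3, 108012255 to 108017973), did not pass the test. It had 36965, 33418, 67559, 38185 and 73261 normalised counts in TAZ-CCl4 replicates 1 to 5, against 43196, 42867 and 54822 in control replicates 1 to 3. The groups overlapped, with replicates 3 and 5 above and replicates 1, 2 and 4 below all controls, and the log2 fold change was 0.02 ± 0.32 (limma, adjusted p = 0.969), against a call of higher at equal totals, at 1.27. Gstm1 made up 45.1 ± 4.06% of the GST signal in TAZ-CCl4 livers and 15.6 ± 2.18% in controls, without overlap. Gstm5 (chromosome 3, 107895821 to 107898686), known in mouse mainly from brain and testis, had 429, 298, 606, 722 and 488 in the TAZ-CCl4 libraries, against 204, 210.4 and 217 in the controls. Its log2 fold change was 1.21 ± 0.25 (limma, adjusted p = 0.00187), and no values overlapped. Of the others, Gstm6 was lower at -1.90, and Gstm4 and Gstm7 were lower at -0.94 and -0.87 as deposited but stood at 0.31 and 0.38 at equal totals. Neither call withstood leaving out a library, since each was lost without TAZ-CCl4 replicate 1, 2 or 4 and without any 1 control, with adjusted p from 0.0629 to 0.130. Gstm2 and Gstm3 did not pass, at 0.45 and 0.17, and Gstm3 ranged from 306 in replicate 2 to 7765 in replicate 3, a 25.3-fold range. Without TAZ-CCl4 replicate 2, Gstm2 was higher at 0.86 (limma, adjusted p = 0.00325) and Gstm3 stood at 0.92.

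Alpha class enzymes reduce lipid hydroperoxides, and Gsta3 is known in mouse for detoxifying the epoxide of aflatoxin. Gsta3 (chromosome 1, 21240589 to 21265661) had 14044, 11589, 15159, 10475 and 13137 normalised counts in the TAZ-CCl4 libraries, against 27562, 33973 and 29112 in the controls. The groups did not overlap, but the log2 fold change of -1.24 ± 0.18 (limma, adjusted p = 1.80e-04) was 0.01 at equal totals and 0.33 after quantile normalisation. Gsta1 did not pass, at 1.47 ± 0.60 (limma, adjusted p = 0.053), with 435, 299, 1938, 738 and 2035 in the TAZ-CCl4 libraries, against 216, 408 and 297 in the controls, and was called higher at equal totals, without TAZ-CCl4 replicate 1 (adjusted p = 0.0364) and without TAZ-CCl4 replicate 2 (adjusted p = 0.0110). Replicates 3 and 5 were high for it, and 92.9% of its 31-base words occur in other genes. Gsta2 and Gsta4, whose enzyme acts on 4-hydroxynonenal, did not pass, at -0.70 and -0.45, and stood at 0.55 and 0.81 at equal totals, where Gsta4 was called higher.

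Gstt1 (chromosome 10, 75783813 to 75798584) and Gstt3 (chromosome 10, 75774115 to 75781414) of the theta class, whose enzymes act on small halogenated compounds, had log2 fold changes of -1.91 ± 0.17 and -2.72 ± 0.30 (limma, adjusted p = 6.73e-06 and 2.94e-05). Gstt1 stood at 1570.3, 1283, 1683, 2052 and 1983 normalised counts in the TAZ-CCl4 libraries, against 5604, 6399.6 and 7137 in the controls. Gstt3 stood at 150.0, 385, 258, 178 and 153, against 1120.3, 1630.2 and 1482 in the controls. Replicate 2, low for the mu class, was highest for Gstt3. Gstz1 (chromosome 12, 87147165 to 87164723), an enzyme gene of tyrosine breakdown, had 3404, 5429.6, 4739, 3670.0 and 4534 in the TAZ-CCl4 libraries, against 14691, 16036 and 15212 in the controls, a log2 fold change of -1.83 ± 0.17 (limma, adjusted p = 9.16e-06). Gstk1 (chromosome 6, 42245935 to 42250447), whose enzyme sits in mitochondria and peroxisomes, had 411, 618, 919, 647 and 704 in the TAZ-CCl4 libraries, against 2474, 2659 and 2455 in the controls, a log2 fold change of -1.98 ± 0.22 (limma, adjusted p = 2.64e-05). Gsto1 (chromosome 19, 47854970 to 47864790), whose enzyme reduces thiols and dehydroascorbate, was the most even, with 736, 762, 965, 959 and 957 in the TAZ-CCl4 libraries and 2664, 2810.0 and 2874 in the controls, a log2 fold change of -1.68 ± 0.13 (limma, adjusted p = 3.60e-06). For these 5 genes the groups did not overlap. Gsto2 and Gstt4 were below the level for testing, at no more than 5.15 and 3.28 in TAZ-CCl4 livers and 7.91 and 3.61 in controls. Per kilobase of the longest coding transcript, Gstm1 at 38695, Gstp1 at 12853 and Mgst1 at 10231 normalised counts per kilobase led the family in TAZ-CCl4 livers, and the same 3 genes led in the controls with Mgst1 first at 95060.0, then Gstp1 at 81392 and Gstm1 at 36433. With the median coding transcript the leading gene of each group stayed the same, but in TAZ-CCl4 livers Mgst1 at 14429 and Gsta3 at 14408 stood ahead of Gstp1 at 13092.

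**Figure D5:**
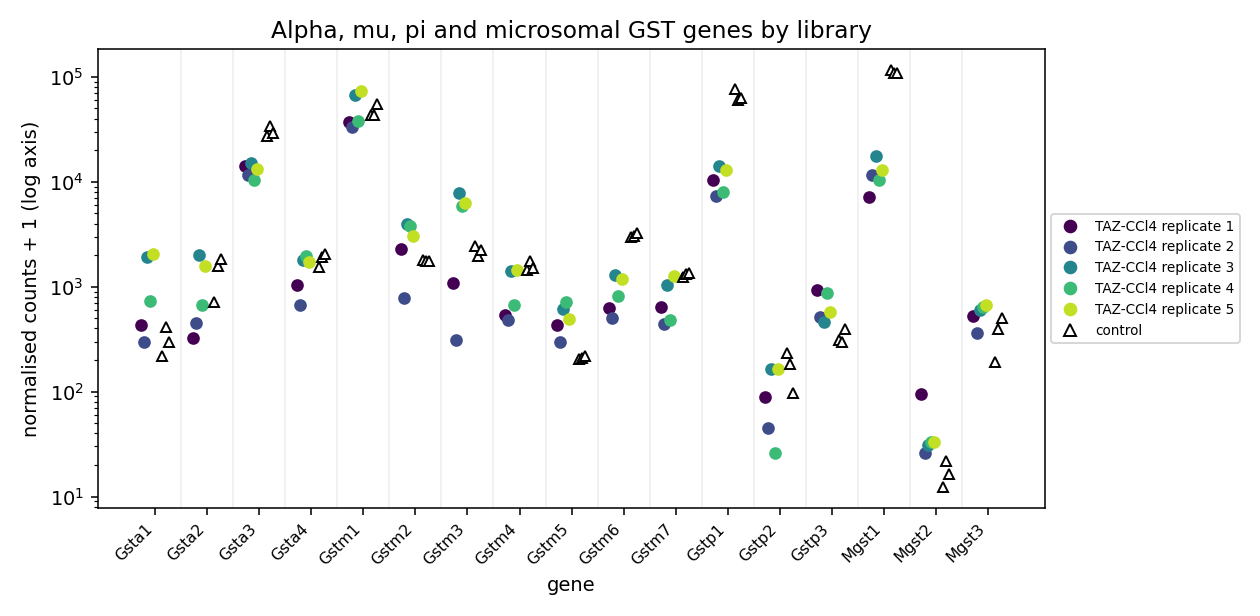
Normalised counts plus 1 (log axis) of the alpha, mu, pi and microsomal GST genes in each library, with filled circles for TAZ-CCl4 replicates 1 to 5 and open triangles for the 3 controls. Mgst1 and Gstp1 lie well below the controls, Gstm5 and Gstp3 above them, and for all 7 mu genes replicate 2 is the lowest TAZ-CCl4 library.

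Several GST genes are textbook targets of NRF2, a factor of the oxidative stress response that binds antioxidant response elements. The 4 tested members whose promoter held the core letters TGACNNNGC on either strand are shown here. Each line is a stretch of 120 bases from 140 to 21 bases upstream of the RefSeq start site, 5′ to 3′ on the strand of the gene, in build GRCm38.p6, with the core or its reverse complement in capitals. They are chr1:21240445-21240564 (plus strand) for Gsta3, chr3:107931635-107931754 (minus strand) for Gstm7, chr6:138140387-138140506 (plus strand) for Mgst1, and chr3:107895714-107895833 (plus strand) for Gstm5.
Gsta3: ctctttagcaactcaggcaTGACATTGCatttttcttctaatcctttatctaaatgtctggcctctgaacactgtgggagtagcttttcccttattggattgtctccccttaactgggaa
Gstm7: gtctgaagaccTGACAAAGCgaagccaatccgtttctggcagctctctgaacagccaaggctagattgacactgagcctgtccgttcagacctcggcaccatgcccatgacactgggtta
Mgst1: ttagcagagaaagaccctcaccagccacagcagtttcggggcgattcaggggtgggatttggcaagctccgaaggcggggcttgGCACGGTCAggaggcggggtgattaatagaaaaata
Gstm5: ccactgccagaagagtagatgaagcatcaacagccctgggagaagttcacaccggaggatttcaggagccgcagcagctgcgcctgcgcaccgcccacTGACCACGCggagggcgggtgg
Gsta3, Gstm7 and Mgst1 were lower and Gstm5 was higher as deposited, and at equal totals Gsta3 and Gstm7 were not called. In Gstm5 the end of the core overlaps the dioxin response element core GCGTG, read on the other strand, and further upstream an AP-1 match overlaps another copy of that core. Among 71 RefSeq promoters of 300 bases that matched 59 of the 67 members, 4 (5.63%) held the NRF2 core on either strand, against 12.4% of all 32851 promoters. The AP-1 letters TGANTCA were found in 14 (19.7%), against 7.81%, the TEAD letters GGAATG in 11 (15.5%), against 14.7%, and the dioxin response element core in 14 (19.7%), against 32.4%. A match is a description of the letters and does not show that a factor binds there. These shares cover 300 bases around the start site only and say nothing of elements further away.

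The TAZ-CCl4 livers differed among themselves across the members. Of the 51 tested genes replicate 3 held the highest TAZ-CCl4 value for 20, replicates 4 and 5 for 11 each, replicate 2 for 6 and replicate 1 for 3. The lowest value lay in replicates 1 and 2 for 18 genes each, in replicate 4 for 10, in replicate 3 for 5 and in replicate 5 for none. Ties at 0 were counted for replicate 1 only. They were Ugt2a2, Ugt2b37 and Ugt2b38, at 0 in replicates 1 and 2, and Ugt1a10, at 0 in replicates 1, 2 and 3. For UGT genes replicate 1 was lowest in 9 of 18 with these ties included, and for GST genes replicate 2 was lowest in 13 of 23. All 7 mu class genes were lowest in replicate 2, and replicate 3 was among the 2 highest for each of them. The 5 genes lowest in replicate 3 alone were Sult2a1, Sult2a2, Sult2b1, Ugt1a7c and Gstp3, all of them called higher as deposited. Ugt1a10, called lower, was also at its lowest in replicate 3, tied with replicates 1 and 2.

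The genes around the transferases moved unevenly by pathway. The counts in these lists stand beside 32.4% of all tested genes higher and 29.8% lower as deposited. At equal totals the shares were 76.3% and 6.39%. The 3 genes that supply UDP-glucuronic acid were all lower as deposited and not called at equal totals. Ugp2, which makes UDP-glucose, had 2902 ± 817 normalised counts in TAZ-CCl4 livers and 7438 ± 819 in controls (SD, n = 5 and n = 3), a log2 fold change of -1.40, and Ugdh, which oxidises it to UDP-glucuronic acid, 2573 ± 814 and 5746 ± 594, with -1.21 on the log2 scale as deposited and 0.04 at equal totals. Of 5 genes of PAPS supply and recycling 3 were lower, among them the PAPS synthase gene Papss2, at 1038 ± 259 against 3713 ± 250.2 and -1.88 on the log2 scale, and the sulfate transporter gene Slc26a1, at -1.88. Both were also lower at equal totals, where 3 others of this list were higher. Of 8 genes of glutathione synthesis and turnover 6 did not pass, including Gclc and Gclm, which encode the rate-limiting synthesis enzyme, at -0.47 and -0.29. At equal totals 6 of the 8 were higher and none lower, against 76.3% and 6.39% of all tested genes. Gclm was higher there, at 0.97, and Gclc was not called, at 0.78. Ggt1, which encodes the cell surface enzyme that starts the breakdown of glutathione and its conjugates, was higher, with 239.7, 118, 78.0, 964 and 179.6 normalised counts in the TAZ-CCl4 libraries, against 9.39, 0 and 3.92 in the controls. Replicate 4 held by far the most, and the log2 fold change was 5.81 ± 0.87 (limma, adjusted p = 2.20e-04), 6.55 without control replicate 1 and 4.87 without control replicate 2. The means were 316 in TAZ-CCl4 livers, and 154 without replicate 4, against 4.43 in controls, and 1.96 without replicate 1. Oplah was lower as deposited, at -0.85, and stood at 0.40 at equal totals.

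Of 7 genes of transporters that export drugs or their conjugates, 4 were higher and 3 lower as deposited. The 4 higher genes were the drug exporter genes Abcb1a and Abcb1b, with Abcc1 and Abcc4. Abcc4, whose protein exports conjugates across the basolateral membrane, had 1096 ± 576 normalised counts in TAZ-CCl4 livers and 34.1 ± 12.6 in controls, a log2 fold change of 4.88 ± 0.38 (limma, adjusted p = 3.03e-06), and Abcb1a had 3.88. The 3 lower genes, Abcc2, Abcc3 and Abcg2, named after their values were seen, had -1.60, -0.90 and -1.78, and none of them was called at equal totals. Gusb, which encodes the lysosomal enzyme that splits glucuronides, was higher at 0.73. Of 10 other conjugating enzyme genes 9 were lower as deposited, while at equal totals 5 were lower and 3 higher. Nnmt, a methyltransferase gene, had 129 ± 66.6 in TAZ-CCl4 livers and 1998 ± 549.9 in controls, a log2 fold change of -4.06, and Glyat, which joins glycine to aromatic acids, had -2.43.

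Of 12 regulator genes, 10 were lower and none higher as deposited, while at equal totals 1 was lower and 4 were higher. The 1 that was lower under both was Nr1i3, which encodes CAR, the nuclear receptor that drives many UGT, SULT and GST genes in hepatocytes. Nr1i3 had 106, 110.0, 271, 20.1 and 63.9 normalised counts in TAZ-CCl4 replicates 1 to 5, against 5569.9, 9111 and 6061 in control replicates 1 to 3, a log2 fold change of -6.31 ± 0.64 (limma, adjusted p = 1.63e-05), and its TAZ-CCl4 mean of 114 was 75.1 without replicate 3. Replicate 4 was lowest and replicate 3 highest among the TAZ-CCl4 livers, and every one of them lay far below the controls. The estrogen receptor gene Esr1 had -1.66, and -0.42 without a call at equal totals. Of 10 NRF2 target genes outside the transferases, 4 were higher, 1 was lower and 5 did not pass as deposited, against 9 higher and 1 lower at equal totals. Among all tested genes 32.4% were higher and 29.8% lower as deposited, and 76.3% and 6.39% at equal totals. The carbonyl reductase gene Cbr3 was higher, at 5.13, and Me1, which encodes malic enzyme, was lower, with 587 ± 227 in TAZ-CCl4 livers and 4283 ± 190.5 in controls, a log2 fold change of -2.96. Nfe2l2, which encodes NRF2 itself, did not pass, at 0.25 (limma, adjusted p = 0.200), and was called higher at equal totals (limma, adjusted p = 1.14e-05).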

How the data were processed

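Poly-A RNA of 8 mouse liver libraries was read from both ends on a NovaSeq, per the labels' protocols. The authors' deposited values are a normalised count signal for each gene in each library, made with kallisto and DESeq2 according to the table's name, and DESeq2 and build mm10 are also given per the submitters' processing notes. Versions, annotation and gene filters are not named in any source used. The values are not whole counts, since 47.3% to 66.8% of those below 10 were no more than 0.03 from whole multiples of the most frequent step, so no count model was run. Dividing the totals by that step gave an estimated 12.4 to 33.8 M reads per library. Pairs of libraries of 1 group differed by 16.9 to 162 times counting noise, with reads estimated from that step. All 8 were kept as separate libraries, but such differences cannot tell whether libraries came from the same mouse.

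Groups were taken from the labels. Values were transformed as log2(value + 1), a scale that also holds for the fold changes and makes those of low genes too small. All 14171 genes with a mean of at least 10 were fitted in R 4.3.3 by limma 3.58.1, two-sided, letting the prior variance follow the mean, and a gene was called where its Benjamini-Hochberg adjusted p over all of them was under 0.05. No covariate was used, since the library project coincides with the group. The fit was checked on simulated data. Each result was recomputed with equal totals, equal totals leaving out Mup and mitochondrial genes, equal upper quartiles, trimmed-mean factors, quantile normalisation, pseudocounts of 0.5 and 5, other filters on low values, other prior variances, a replicate block, and without each library.

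Per-library values are given for 28 members chosen by rule. They are the member with the largest mean in each subfamily, up to 3 largest rises and 3 largest falls in each family among called members with a higher group mean of at least 50, and the 2 members called in opposite directions as deposited and at equal totals. From each pathway list the 2 called genes that changed most and had a mean of at least 50 in the higher group are named. Members and lists were chosen with earlier results of these data known. Other genes were named after their values were seen. Positions and transcript lengths came from GENCODE M21, where all 67 members were found, and promoters from RefSeq (GRCm38.p6). Protein identities between members were not computed here. 1 regulator gene and the promoter search tied to it are not reported here. Transcripts were cut into words of 31 bases, and for 19 members over 50% of the words also occur in another gene, so their values are uncertain singly.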

Additional observations from a re-analysis of the deposited data

Results flagged for a closer look

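In 2 of the 51 tested members 1 TAZ-CCl4 library stood apart from the other 4 by Dixon's test, which chance gives in about 1 of 20 groups. Mgst2 was highest in TAZ-CCl4 replicate 1, at 94.0 normalised counts, with the others at 24.8 to 32.4. Sult2a7 was highest in TAZ-CCl4 replicate 3, at 7.10 normalised counts, with the others at 0.988 to 1.73.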

How the results depend on the processing

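Counts and medians moved with the scaling and with the filter on low values. At equal totals 16 members were called higher, among them 3 UGT and 8 GST genes, and the medians were -2.48 for UGT, 0.15 for SULT and 0.31 for GST. With Mup and mitochondrial genes left out of the totals 7 GST genes were higher and the medians were -0.27 for SULT and -0.11 for GST, and at equal upper quartiles 5 GST genes were higher. With a mean of at least 50 required, 5 members and 2 SULT genes were higher and the SULT median was -2.43, while with a mean of at least 1 or no filter it was 0.19 or 0.32, since more low SULT genes entered. Among single genes Gsta3 stood at 0.015 at equal totals and 0.33 after quantile normalisation. Ugt2b34 stood at 0.21 at equal totals after leaving out Mup and mitochondrial genes, 0.63 at equal totals and 0.55 after quantile normalisation, and Ugt2b35 at 0.033, 0.45 and 0.073 under the same settings. The cause was not tested. Leaving out 1 library at a time gave 2 to 6 GST genes higher and a Gstm1 log2 fold change between -0.14 and 0.14, with 6 without TAZ-CCl4 replicate 2. The replicate numbers were not taken as pairs, since the labels name no shared litter or day. Deviations of libraries with the same number correlated at -0.0665, -0.0640 and -0.0883, and those with different numbers at -0.0904 to 0.0730. Such values cannot tell whether libraries shared a litter or day. With a replicate block 0 UGT genes were higher, Gstm1 stood at -0.094, 39 of the 42 called members kept their call, and Mgst2, Ugt1a7c and Ugt2b34 lost it. Pseudocounts of 0.5 and 5 changed no member's call. For members near 0 in one group the fold change depends on the pseudocount, and 16 members were too low to test.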
